A study of Homo sapiens with 21 samples.

Results

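PK7, PK19 and PK25 are 3 clones that each carry introduced parkin. They derive from U-87MG, a long-cultured line from a human glioblastoma. The genes described here are those in which both PK7 and PK19 differed from PK25 in the same direction. The comparison used 9 of the 21 arrays of the study, 3 arrays (sets 1 to 3) for each of the 3 clones, so 6 arrays of PK7 and PK19 were set against 3 of PK25. It carried no difference in the introduced gene by design, because all 9 arrays belong to parkin clones. The study also measured vector clones, which carry the empty vector without parkin. Vector clone V22 (sets 4 to 6) shared an array file prefix with the parkin clones and served as a reference. Its arrays entered the fit's estimate of the spread but neither contrast of the rule. V8, V17 and further V22 arrays (sets 1 to 3 each) carried another prefix. The prefixes were read here as 2 array series. Cells of every clone were plated in equal numbers and cultured for a day before RNA was taken. Each name stands for 1 clone, and nothing in the labels says that the 3 arrays of a clone came from separate cultures. The p-values below therefore measure only the spread between arrays, which may be technical. The level of the introduced transcript itself was not analysed here.

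Parkin is a ubiquitin ligase best known for marking damaged mitochondria for removal. A clone grows from a single transfected cell, so clones of one line can differ in chromosome content and in stable expression states as well as in the introduced gene. Glioblastoma cells can make complement proteins, inflammatory cytokines and matrix enzymes. They also switch on genes of hypoxia-inducible factor (HIF), a transcription factor that is stabilised when oxygen is scarce.

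The values are log2 of the deposited intensity, with 1 probe set per gene symbol (the one brightest over all 21 arrays), and 18374 genes were tested. Array medians of the second series lay between 6.22 and 6.37. The root mean square deviation of an array from its clone mean was 0.238 for PK7 set 2 and 0.209 for PK25 set 3, and 0.116 to 0.187 for the other 7 arrays. The markers of mesenchymal glioma cells VIM, FN1, TIMP1, ANXA2 and LGALS1 had clone means between 12.37 and 13.20 in PK7, PK19 and PK25. GFAP stood between 6.31 and 6.54 and S100B between 4.04 and 4.10, so these glial markers were near or below the median probe set (6.29). Of the 7 measured markers of the line itself, CD44 rose and NES was lower (-0.57 and -0.65). No measured marker of neurons (5), endothelium (5), epithelium (5), blood (4), muscle (5) or fibroblasts (5) was called in the same direction in PK7 and PK19 by limma, and 0 of these had an unadjusted p under 0.05 in both with the same sign. The fibroblast marker COL1A2 passed in both contrasts with opposite signs (0.73 in PK7 and -1.99 in PK19, larger limma adjusted p = 0.0382).

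PK7 and PK19 shared part of their differences from PK25. In limma, where a call needs a p under 0.05 after Benjamini-Hochberg adjustment across the whole table, PK7 differed from PK25 in 2552 genes (13.9% of those tested; 7.77% higher and 6.12% lower). PK19 differed from PK25 in 2818 genes (15.3%; 8.29% higher and 7.05% lower). PK7 and PK19 differed from each other in 3158 genes (17.2%), more than either differed from PK25. Both contrasts passed with the same sign in 990 genes (5.39%), of which 541 (2.94%) were higher and 449 (2.44%) lower than in PK25. In 132 further genes (0.718%) both contrasts passed with opposite signs. In the lists below, "called" and the counts at an unadjusted p take both contrasts with the same sign. The difference was at least 2-fold in both clones in 155 genes (0.844%), 116 higher (0.631%) and 39 lower (0.212%). The contrasts share the 3 PK25 arrays, so a high or low PK25 array moves both. Just inside the 2-fold limit stood TNIP3 (1.00 in PK7 and 1.20 in PK19) and GMNN (-1.12 and -1.01), and just outside stood PLOD2 (1.23 and 0.99) and SPRY4 (-1.88 and -0.99).

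The arrays of PK7 and PK19 all lay on one side of the arrays of PK25 in 2358 genes (12.8%; 6.57% above and 6.26% below). The 155 genes were chosen for a large difference on these same arrays, which nearly fixes such a separation, and nothing is read from it there (115 of the 116 higher and 39 of the 39 lower). V22 of the same series was nearer to PK25 than to the mean of PK7 and PK19 in 105 of the 116 (90.5%) and in 35 of the 39 (89.7%), against 54.9% of all genes. PK25 itself differed from V22 in 146 genes (0.795%) by the same limma test, while PK7 differed from V22 in 2840 (15.5%) and PK19 in 2767 (15.1%). With each clone reduced to its mean, 2 clones against 1, limma called 0 genes. In that fit 966 genes had an unadjusted p under 0.05, 552 higher and 414 lower, and the smallest adjusted p was 0.885. The calls above therefore compare these 3 clones and carry no spread between clones.

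**Figure D1:**
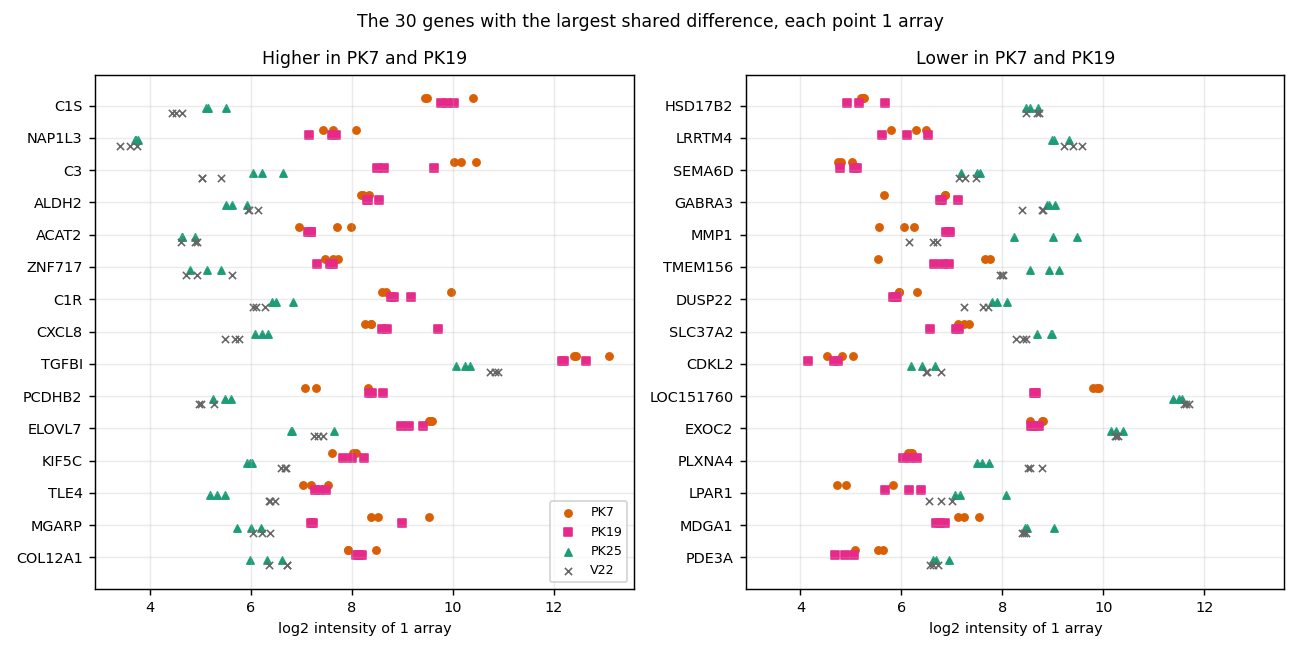
Log2 intensity (horizontal axis) of the 15 genes each way with the largest shared difference, each point 1 array of PK7, PK19, PK25 or V22. In C1S the PK7 and PK19 arrays lie between 9.46 and 10.41 and the PK25 arrays between 5.11 and 5.51, and in HSD17B2 the order is reversed, with PK25 at 8.47 to 8.70.

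The gene with the largest rise, C1S, belongs to the classical complement pathway. C1S and C1R encode the paired serine proteases of the C1 complex, C3 is the central component that is cleaved during activation, and CLU (clusterin) and CD46 restrain complement. These 5 genes were called higher in PK7 and PK19 and 0 were called lower by limma, of 14 measured, with 5 and 0 at an unadjusted p under 0.05 in both contrasts. Of all genes, 2.94% were called higher and 2.44% lower. CD46 was named after its values were seen. The median difference over the list was 0.50 in PK7 and 0.12 in PK19, against -0.04 and -0.04 over all genes. The PK19 median moved to 0.06 without PK19 set 2, 0.04 without PK25 set 1, 0.25 without PK25 set 2 and 0.22 without PK25 set 3, and 5 genes were called in each of these settings.

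C1S was at 9.50, 10.41 and 9.46 on the PK7 arrays (sets 1, 2 and 3), at 9.89, 10.02 and 9.77 on the PK19 arrays and at 5.11, 5.51 and 5.16 on the PK25 arrays. V22 was lower than PK25, at 4.54 ± 0.10 (SD, n = 3 arrays). The log2 difference was 4.53 (SE 0.21) in PK7 and 4.63 (SE 0.21) in PK19, or 23.1-fold and 24.8-fold, with a larger limma adjusted p of 8.9e-08. Its partner C1R, which lies beside it on chromosome 12, was at 8.69, 9.96 and 8.60 in PK7, 8.79, 9.18 and 8.84 in PK19 and 6.42, 6.85 and 6.51 in PK25. Both proteases were thus high on every array of PK7 and PK19, with the set 2 array the highest in each. The difference of C1R was 2.49 (SE 0.28) and 2.34 (SE 0.28), larger limma adjusted p = 1.2e-04.

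C3 was at 10.02, 10.47 and 10.17 in PK7, 8.64, 9.64 and 8.51 in PK19 and 6.22, 6.64 and 6.04 in PK25. The 3 clones formed 3 separate levels, and the arrays of PK7 and PK19 did not overlap. C3 was 3.92 (SE 0.26) above PK25 in PK7 and 2.63 (SE 0.26) above it in PK19 (larger limma adjusted p = 2.4e-05), and PK7 exceeded PK19 by 1.29 (adjusted p = 0.0046). CLU was at 10.91, 10.51 and 10.95 in PK7, 10.12, 10.09 and 10.10 in PK19 and 9.07, 9.11 and 8.97 in PK25, a rise of 1.74 and 1.05 (SE 0.11 each). For CLU the V22 mean of 9.66 lay between PK25 and PK19, and PK25 was lower than V22 by limma (-0.61, adjusted p = 0.032). CD46 rose by 0.48 and 0.47 (SE 0.11 each, larger adjusted p = 0.011). SERPING1, the inhibitor of C1S and C1R, differed by 0.09 and 0.09 (larger limma adjusted p = 0.761), and the terminal pathway inhibitor CD59 by -0.08 and -0.19. C5 differed by 0.96 in PK7 and -0.20 in PK19 and CFI by 1.52 and 0.15, and neither was called in both.

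Targets of NF-kB, the transcription factor that drives inflammatory cytokine genes, rose in 7 of 27 measured genes by limma, and 0 were called lower (8 and 1 at an unadjusted p under 0.05; 1 was called lower without PK7 set 3). The called genes were the chemokines CXCL8 and CXCL1, the cytokines IL6 and IL1A, the adhesion receptor ICAM1, the mitochondrial superoxide dismutase SOD2 and the feedback inhibitor TNFAIP3. Over all genes 2.94% were called higher and 2.44% lower. The list median was 0.43 in PK7 and 0.48 in PK19. All 7 had a promoter entry in the RefSeq table, and 5 of the 7 held the letters GGNNNTTCC, the core of a kappa B site, on either strand within 250 bases before the start. The same letters were found in 17.1% of all 35116 promoters of that length and in 14 of the 20 list members with an entry. Members of this list and of the HIF list below were read at their first listed start only, while the 35116 promoters hold every listed start. SOD2 has 4 listed starts and IL1A 2. A match describes letters only. These 5 are shown so that the position of the match can be seen beside the gene's values. Each is 250 bases that end at the base before the start, 5′ to 3′ on the gene's strand (the plus strand in all 5), from RefSeq on GRCh38.p14, with the match in capitals. They lie at chr4:73740319-73740568 (CXCL8), chr4:73869143-73869392 (CXCL1), chr7:22726950-22727199 (IL6), chr19:10270870-10271119 (ICAM1) and chr6:137867009-137867258 (TNFAIP3).
CXCL8: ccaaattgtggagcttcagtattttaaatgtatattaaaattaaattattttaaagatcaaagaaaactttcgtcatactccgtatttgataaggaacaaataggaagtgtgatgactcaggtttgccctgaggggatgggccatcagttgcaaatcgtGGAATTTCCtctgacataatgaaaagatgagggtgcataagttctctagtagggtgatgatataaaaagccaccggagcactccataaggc
CXCL1: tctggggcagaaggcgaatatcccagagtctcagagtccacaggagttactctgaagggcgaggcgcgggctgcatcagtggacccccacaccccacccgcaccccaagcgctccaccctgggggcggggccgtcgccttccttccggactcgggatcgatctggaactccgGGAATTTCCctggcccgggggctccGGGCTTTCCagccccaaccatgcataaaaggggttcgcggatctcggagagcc
IL6: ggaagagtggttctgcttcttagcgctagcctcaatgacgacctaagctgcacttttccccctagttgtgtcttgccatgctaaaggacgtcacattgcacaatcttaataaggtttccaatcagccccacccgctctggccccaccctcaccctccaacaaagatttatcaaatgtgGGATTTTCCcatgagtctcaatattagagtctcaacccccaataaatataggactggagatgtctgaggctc
ICAM1: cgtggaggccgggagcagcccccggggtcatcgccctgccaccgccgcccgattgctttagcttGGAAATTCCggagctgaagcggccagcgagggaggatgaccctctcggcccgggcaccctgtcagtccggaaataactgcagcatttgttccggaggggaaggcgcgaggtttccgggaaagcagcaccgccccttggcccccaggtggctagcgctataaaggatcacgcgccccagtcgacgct
TNFAIP3: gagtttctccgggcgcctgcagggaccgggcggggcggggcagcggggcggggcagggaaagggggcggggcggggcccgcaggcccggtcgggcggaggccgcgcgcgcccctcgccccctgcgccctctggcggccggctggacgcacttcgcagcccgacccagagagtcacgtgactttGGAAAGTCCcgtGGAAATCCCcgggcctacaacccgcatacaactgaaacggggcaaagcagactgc

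The match nearest the start lay 91 bases before it in CXCL8, 53 in CXCL1, 72 in IL6, 186 in ICAM1 and 55 in TNFAIP3. CXCL8, the neutrophil chemokine interleukin 8, was at 8.39, 8.26 and 8.39 in PK7, 8.60, 9.72 and 8.70 in PK19 and 6.09, 6.22 and 6.34 in PK25. PK19 set 2 was the highest array. The rise was 2.13 in PK7 and 2.78 in PK19 (SE 0.23 each), 4.38-fold and 6.89-fold, larger limma adjusted p = 6.0e-05. IL6 was at 6.60, 7.42 and 6.61 in PK7, 8.09, 9.56 and 8.11 in PK19 and 5.00, 5.70 and 5.34 in PK25. PK19 was the higher of the pair on every array, with a PK7 minus PK19 difference of -1.71 (limma adjusted p = 0.0056). IL6 rose by 1.53 in PK7 and 3.24 in PK19 (SE 0.35 each, larger adjusted p = 0.013), and the call was lost without PK7 set 2 (adjusted p = 0.06) and without PK25 set 1 (0.059).

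ICAM1 was at 7.38, 7.54 and 6.98 in PK7, 7.13, 7.77 and 6.60 in PK19 and 5.29, 5.31 and 5.88 in PK25, and it rose by 1.81 and 1.68 (SE 0.25 each, larger limma adjusted p = 6.5e-04). TNFAIP3 was at 8.48, 8.45 and 8.50 in PK7, 6.76, 7.89 and 6.98 in PK19 and 6.22, 6.60 and 6.22 in PK25. The PK7 arrays were close together, while PK19 set 2 stood well above the other PK19 arrays, and TNFAIP3 rose by 2.13 and 0.86 (SE 0.23 each). SOD2 stood higher in PK7 (10.22, 10.60 and 10.35) than in PK19 (9.52, 10.01 and 9.57), and both clones exceeded PK25 (8.61, 8.78 and 8.61). CXCL1 rose by 0.58 and 0.42 and IL1A by 0.94 and 1.41. Among the 20 members without a call in both, several stood high in one clone alone. LIF differed by 0.17 in PK7 and 2.08 in PK19, PTGS2 by 0.52 and 2.17, IL1B by -0.29 and 1.39, and CSF1 by 1.29 and -0.15. The NF-kB subunit genes NFKB1 (0.27 and -0.01) and RELB (-0.04 and 0.09) were not called.

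Targets of HIF were the list with the largest shared shift. Of 43 measured genes, limma called 11 higher and 0 lower (25 and 0 at an unadjusted p under 0.05; 2.94% and 2.44% of all genes were called), the median difference was 0.67 in PK7 and 0.74 in PK19, and 41 of 43 had a positive difference in both clones. All PK7 and PK19 arrays exceeded all PK25 arrays in 27 of the 43, where 6.57% of all genes did so. The called genes were LOX and PLOD2, which crosslink and hydroxylate collagen, the collagen prolyl hydroxylase subunits P4HA1 and P4HA2, the pyruvate dehydrogenase kinase PDK1, the carbonic anhydrase CA12, the mitophagy receptor BNIP3L, the repressor BHLHE40, the hormone stanniocalcin 2 (STC2), NDRG1 and TMEM45A. Of the 11, 9 had a promoter entry, and 4 of these 9 held the letters ACGTG, the core of a HIF response element, on either strand in the 250 bases before the start, against 18.5% of all promoters and 18 of the 35 list members with an entry. The 4 are shown for that match, in capitals, from RefSeq on GRCh38.p14. BHLHE40 (chr3:4979187-4979436) is on the plus strand, and LOX (chr5:122078260-122078509, the first of 3 listed starts), P4HA1 (chr10:73096867-73097116) and PLOD2 (chr3:146161185-146161434) are on the minus strand and are printed in the direction of the gene.
BHLHE40: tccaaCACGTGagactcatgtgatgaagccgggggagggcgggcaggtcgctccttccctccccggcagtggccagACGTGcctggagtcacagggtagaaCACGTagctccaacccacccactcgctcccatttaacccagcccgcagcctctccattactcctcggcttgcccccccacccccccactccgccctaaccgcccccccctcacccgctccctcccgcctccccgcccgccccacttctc
LOX: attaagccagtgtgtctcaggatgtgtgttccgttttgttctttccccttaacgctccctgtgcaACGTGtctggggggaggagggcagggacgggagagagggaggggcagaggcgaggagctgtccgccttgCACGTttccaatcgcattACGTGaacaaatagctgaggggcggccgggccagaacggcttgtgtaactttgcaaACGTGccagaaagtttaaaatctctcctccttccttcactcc
P4HA1: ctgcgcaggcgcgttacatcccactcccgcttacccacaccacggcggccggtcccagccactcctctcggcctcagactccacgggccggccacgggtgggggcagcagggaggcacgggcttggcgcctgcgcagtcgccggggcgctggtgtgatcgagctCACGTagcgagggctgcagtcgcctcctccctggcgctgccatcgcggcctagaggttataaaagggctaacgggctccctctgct
PLOD2: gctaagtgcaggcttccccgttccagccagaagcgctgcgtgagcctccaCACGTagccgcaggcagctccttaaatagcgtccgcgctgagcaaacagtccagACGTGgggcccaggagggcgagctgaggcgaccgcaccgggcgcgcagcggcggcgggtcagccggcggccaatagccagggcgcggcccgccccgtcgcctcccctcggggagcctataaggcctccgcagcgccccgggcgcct

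BHLHE40 and LOX each held 4 such matches, of which a pair overlaps in BHLHE40, PLOD2 held 2 and P4HA1 held 1. LOX was at 11.04, 12.26 and 11.04 in PK7, 10.31, 11.52 and 10.21 in PK19 and 9.57, 9.45 and 9.21 in PK25. Its set 2 array exceeded the other arrays of PK7 and of PK19 by more than 1 log2 unit, while PK25 set 2 did not stand out. LOX rose by 2.04 and 1.27 (SE 0.35 each, larger limma adjusted p = 0.031). P4HA1 was at 10.73, 11.30 and 10.58 in PK7, 10.45, 11.44 and 10.46 in PK19 and 9.77, 9.89 and 9.50 in PK25, a rise of 1.15 and 1.06 (SE 0.25 each). PLOD2 was at 11.76, 12.37 and 11.63 in PK7, 11.42, 12.09 and 11.54 in PK19 and 10.76, 10.79 and 10.52 in PK25. The same set 2 arrays were the highest in all 3 genes. STC2 rose by 1.95 and 1.39 (SE 0.31 each, larger adjusted p = 0.0098), NDRG1 2.82-fold and 4.47-fold (0.024) and TMEM45A by 2.52 and 1.61 (SE 0.48 each, 0.045). Some of these calls were lost when 1 array was left out. The LOX call was lost without PK19 set 2 or any 1 of the PK25 arrays (limma adjusted p = 0.061 to 0.11). NDRG1 lost its call without PK7 set 2, PK25 set 1 or PK25 set 3 (0.066 to 0.075), and TMEM45A without PK7 set 1, PK19 set 2, any 1 of the PK25 arrays or any 1 of the V22 arrays (0.054 to 0.16). For BNIP3L it was lost without PK7 set 2, PK7 set 3, PK19 set 2, PK25 set 1, PK25 set 3 or V22 set 6 (0.051 to 0.14).

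The mean over the 43 genes was 9.22, 9.95 and 9.17 in PK7, 9.21, 10.10 and 9.20 in PK19, 8.74, 8.80 and 8.58 in PK25 and 8.61, 8.68 and 8.61 in V22. The set 2 arrays of PK7 and PK19 stood farther above their own set 1 and 3 arrays than those stood above PK25. Without the set 2 arrays and V22 set 5, limma called 16 of the 43 higher and 1 lower, with medians of 0.43 and 0.46. The count was 7 without PK7 set 2, 4 without PK25 set 1 and 2 without PK25 set 3. The PK7 median was 0.39 without PK7 set 2, and the PK19 median 0.43 without PK19 set 2. The part of set 2 in the shift beyond these values was not tested. Members without a call included VEGFA (0.23 and 0.51), the glucose transporter SLC2A1 (0.86 and 0.65, adjusted p = 0.199 by limma), ADM (0.91 and 0.74), BNIP3 (0.78 and 1.58) and the HIF hydroxylase EGLN3 (-0.14 and -0.20). Of 14 genes of the HIF pathway itself, 1 was called. That gene, ARNT2, encodes a partner subunit of HIF and was at 6.98, 7.24 and 6.94 in PK7, 6.84, 6.97 and 6.97 in PK19 and 5.77, 5.53 and 5.68 in PK25, a rise of 1.39 and 1.27 (SE 0.12 each, larger adjusted p = 1.6e-05). In ARNT2 the set 2 arrays did not stand apart. Among 21 genes of glycolysis and lactate transport, 1 was called, where 2.94% of all genes were called higher and 2.44% lower. PGK1, phosphoglycerate kinase, rose by 0.54 and 0.56 (SE 0.14 each, 0.028) and lost its call without PK7 set 2 (adjusted p = 0.1), PK19 set 2 (0.07), PK25 set 1 (0.085) or PK25 set 3 (0.071).

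**Figure D2:**
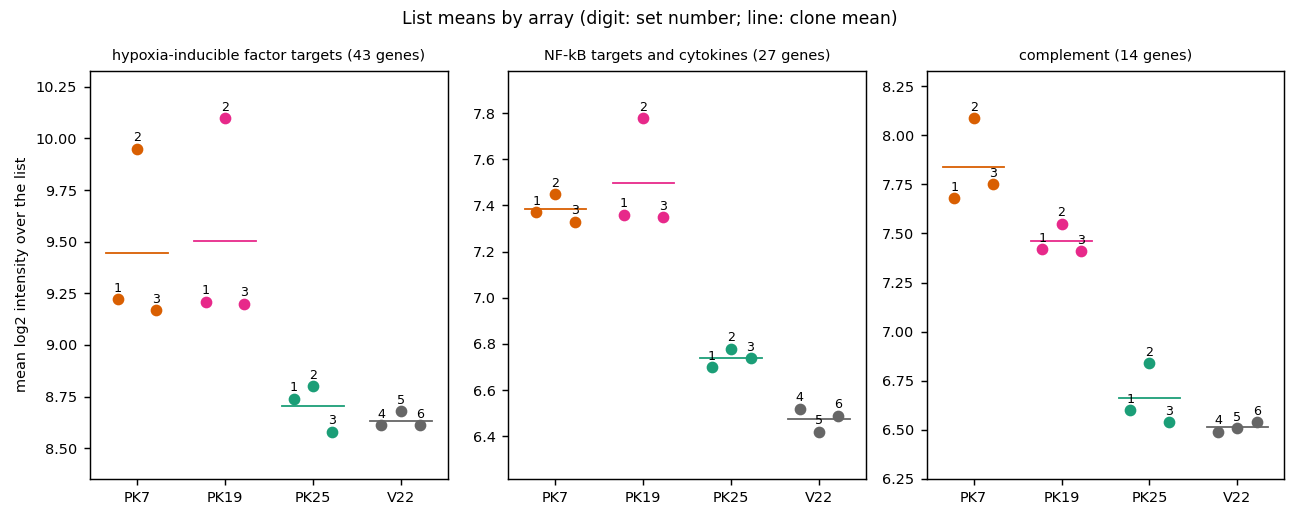
Mean log2 intensity over the measured genes of 3 lists (vertical axis), each point 1 array with its set number and each line the mean of a clone. The set 2 arrays of PK7 (9.95) and PK19 (10.10) stand above the other arrays in the HIF target list, and all PK7 and PK19 arrays lie above PK25 in the 3 lists.

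Matrix genes and the enzymes that cut them differed in both directions. TGFBI, a secreted matrix protein that binds collagen and integrins, was at 12.45, 13.10 and 12.41 in PK7, 12.16, 12.65 and 12.21 in PK19 and 10.25, 10.35 and 10.07 in PK25. It was among the brightest genes of PK7 and PK19, and V22 (10.83 ± 0.076, SD, n = 3 arrays) was nearer to PK25. The rise was 2.43 and 2.12 (SE 0.18 each, larger limma adjusted p = 7.3e-06). COL12A1, a fibril-associated collagen, rose by 1.80 and 1.83 (SE 0.18 each). It was the 1 called gene of 22 collagens, where 2.94% of all genes were called higher and 2.44% lower. The fibrillar collagen genes COL1A1 (0.57 and -1.02) and COL1A2 (0.73 and -1.99) stood in opposite directions in PK7 and PK19. EFEMP1, an elastic fibre protein, was at 5.79, 7.27 and 5.74 in PK7 and 8.09, 7.86 and 8.08 in PK19, against 4.46, 4.69 and 4.78 in PK25. CD44, the hyaluronan receptor, rose by 0.43 and 0.84 (SE 0.09 each).

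Of 21 matrix proteases and inhibitors, 4 were called higher and 2 lower, against 2.94% and 2.44% of all genes, and 3 passed in both contrasts with opposite signs. MMP1, interstitial collagenase, was at 6.05, 5.56 and 6.24 in PK7, 6.88, 6.97 and 6.95 in PK19 and 9.48, 8.22 and 9.01 in PK25. PK25 was the clone that stood out here, since V22 was at 6.50 ± 0.30 (SD, n = 3 arrays) and PK25 exceeded it by 2.41 (limma adjusted p = 0.0016). The difference of MMP1 was -2.95 (SE 0.27) in PK7 and -1.97 (SE 0.27) in PK19. MMP3, stromelysin 1, went the other way on the same chromosome arm, at 10.15, 9.69 and 10.27 in PK7, 10.84, 10.67 and 10.98 in PK19 and 9.16, 7.29 and 8.58 in PK25. The PK25 arrays of MMP3 spread over nearly 2 log2 units, and its call (1.69 and 2.49, SE 0.43 each, adjusted p = 0.021) was lost without PK7 set 1, PK7 set 3 or PK25 set 2 (0.058 to 0.069). MMP2, gelatinase A, was at 12.51, 12.95 and 12.58 in PK7, 12.53, 12.59 and 12.47 in PK19 and 11.33, 11.47 and 11.26 in PK25, a rise of 1.33 and 1.18 (SE 0.12 each). V22 stood at 12.09 ± 0.026, and PK25 was below it by limma (-0.74, adjusted p = 0.013). ADAM12 rose by 1.05 and 1.15, the inhibitor TIMP4 by 0.95 and 0.63, and MMP12 differed by -0.81 and -0.76. The count of 2 lower was 1 without PK7 set 3, PK19 set 1, PK19 set 3 or PK25 set 1.

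Receptors for the matrix split by subunit. ITGAV rose by 1.31 in PK7 and 0.68 in PK19 and its partner ITGB5 by 0.67 and 1.40, whereas the collagen receptor subunit ITGA2 differed by -1.24 and -0.76, ITGB8 by -0.74 and -1.22, and the laminin chains LAMA2 by -0.65 and -0.97 and LAMA5 by -0.54 and -0.70. Those are the 2 higher and 4 lower calls among 20 integrins and laminins, where 2.94% and 2.44% of all genes were called. The ITGB8 call was lost without PK7 set 1, PK7 set 3, PK25 set 1 or PK25 set 2 (limma adjusted p = 0.076 to 0.11). PK25 was above V22 in LAMA2 (0.72, limma adjusted p = 0.0049) and LAMA5 (0.96, 0.0021). Of 17 genes of smooth muscle and the contractile cytoskeleton, limma called 5 lower and 0 higher (6 and 0 at an unadjusted p under 0.05), against 2.44% and 2.94% of all genes. They were the actin ACTG2 (-0.98 and -1.33), the actin binders TAGLN (-0.64 and -0.95) and CNN2 (-0.50 and -0.78), the transcription factor SRF (-0.54 and -0.70) that controls such genes, and the focal adhesion gene TGFB1I1 (-0.42 and -0.95). In TAGLN the V22 mean of 8.23 was above all 9 parkin arrays, and PK25 was itself lower than V22 by limma (-1.65, adjusted p = 3.3e-04). The smooth muscle actin ACTA2 differed by -0.24 and -1.41, and tropomyosin TPM1 by 0.52 and -0.58, so the list median was -0.11 in PK7 and -0.70 in PK19. The count of 5 was 2 without PK7 set 1, 3 without PK7 set 3 and 3 without PK25 set 3. ACTG2 lost its call without PK7 set 1, PK7 set 2 or PK25 set 2 (limma adjusted p = 0.078 to 0.083) and TAGLN without PK7 set 1, PK7 set 3 or PK25 set 3 (0.064 to 0.067).

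Several of the largest rises fell in no such group. NAP1L3, a histone chaperone family gene on the X chromosome, was at 8.09, 7.43 and 7.64 in PK7, 7.69, 7.15 and 7.62 in PK19 and 3.74, 3.77 and 3.71 in PK25. PK25 and V22 (3.59 ± 0.17, SD, n = 3 arrays) lay far below the median of all probe sets, 6.29, and PK7 and PK19 above it. The rise was 3.98 and 3.75 (SE 0.17 each), 15.8-fold and 13.4-fold, larger limma adjusted p = 7.4e-08. ALDH2, mitochondrial aldehyde dehydrogenase, was at 8.19, 8.35 and 8.23 in PK7, 8.32, 8.54 and 8.30 in PK19 and 5.52, 5.64 and 5.92 in PK25. The rise was 2.56 and 2.69 (SE 0.12 each). ACAT2, which encodes an acetoacetyl-CoA thiolase, was at 7.99, 6.96 and 7.71 in PK7, 7.20, 7.20 and 7.14 in PK19 and 4.65, 4.90 and 4.65 in PK25, a rise of 2.82 and 2.44 (SE 0.20 each). ACAT2 and SOD2 lie on chromosome 6, which held 150 lower and 16 higher calls.

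ZNF717, a zinc finger gene, rose by 2.50 and 2.39, ELOVL7, a fatty acid elongase, by 2.47 and 2.08, and PCDHB2, a clustered protocadherin, by 2.11 and 3.00. The motor protein gene KIF5C rose by 1.93 and 2.05 and the co-repressor TLE4 by 1.91 and 2.02. In both, PK25 lay below V22 by limma (-0.69, adjusted p = 0.04, and -1.06, adjusted p = 0.0026), so PK25 was the lowest of the 4 clones. MGARP, a mitochondrial protein gene, was at 8.53, 9.53 and 8.38 in PK7, 7.19, 9.00 and 7.24 in PK19 and 6.00, 6.20 and 5.73 in PK25, again with set 2 high in PK7 and PK19. Its rise was 2.84 and 1.83 (SE 0.41 each, larger adjusted p = 0.01). Of 18 listed protocadherins 3 were called higher and at least 2-fold, PCDHB2, PCDHB14 (1.39 and 1.15) and PCDHB10 (1.23 and 1.83), and PCDH10 on chromosome 4 was lower (-1.47 and -0.75). PCDHB13, a protocadherin outside the list, was also called at least 2-fold higher. Of all genes, 2.94% were called higher, 0.631% at least 2-fold higher and 2.44% lower. The PCDHB10 call was lost without PK7 set 2, PK19 set 1, PK19 set 3, PK25 set 1, PK25 set 3, V22 set 4 or V22 set 6 (limma adjusted p = 0.054 to 0.15). The beta cluster genes are close paralogs, so their probe sets may not measure each gene alone. The small heat shock protein HSPB8 rose by 1.34 and 1.37 over a PK25 level itself above V22 (1.24, limma adjusted p = 0.021), the imprinted gene NDN by 1.60 and 1.43, the adhesion gene MCAM by 1.47 and 1.87, and cathepsin S (CTSS) by 1.72 and 1.66.

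Among the genes lower in PK7 and PK19, HSD17B2 had the largest difference. It encodes an enzyme that inactivates sex steroids and was at 5.23, 5.26 and 5.20 in PK7, 4.92, 5.15 and 5.67 in PK19 and 8.70, 8.55 and 8.47 in PK25. V22 stood with PK25, at 8.62 ± 0.14 (SD, n = 3 arrays). The difference was -3.34 and -3.33 (SE 0.16 each), 10.1-fold and 10-fold, larger limma adjusted p = 1.0e-07. LRRTM4, a synaptic adhesion gene, was at 6.29, 5.79 and 6.49 in PK7, 6.10, 5.62 and 6.53 in PK19 and 9.32, 8.98 and 9.02 in PK25. SEMA6D, a semaphorin, was at 4.75, 5.02 and 4.80 in PK7, 5.05, 4.78 and 5.12 in PK19 and 7.50, 7.55 and 7.18 in PK25. Neither was called between PK7 and PK19, with a PK7 minus PK19 difference of 0.11 (SE 0.22) in LRRTM4 and -0.13 (SE 0.14) in SEMA6D. GABRA3, a GABA-A receptor subunit on the X chromosome, was at 6.87, 5.66 and 6.87 in PK7, 6.80, 7.11 and 6.76 in PK19 and 8.93, 9.05 and 8.89 in PK25, a difference of -2.49 and -2.07 (SE 0.26 each).

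The signalling genes of this group included receptors and enzymes. LPAR1, a receptor for lysophosphatidic acid, was at 4.90, 5.83 and 4.72 in PK7, 6.15, 6.39 and 5.68 in PK19 and 7.15, 8.08 and 7.07 in PK25, and its call was lost without PK19 set 3 (limma adjusted p = 0.056). PDE3A, a cyclic nucleotide phosphodiesterase, differed by -1.34 and -1.88, the kinase gene CDKL2 by -1.62 and -1.90, and the phosphatase gene DUSP22 by -1.86 and -2.04. TMEM156 (-1.88 and -2.06) had 1 low array in PK7, at 5.53 beside 7.65 and 7.75. The sugar phosphate transporter SLC37A2 differed by -1.65 and -1.95 and the non-coding LOC151760 by -1.61 and -2.82, with the 3 clones at 3 levels. In axon guidance 2 of 26 genes were called higher and 3 lower (2.94% and 2.44% of all genes), and the count of 2 was 1 without PK7 set 1, PK19 set 1, PK19 set 3, PK25 set 1 or any 1 of the V22 arrays. The lower ones were the plexins PLXNA4 (-1.44 and -1.45) and PLXNA2 (-1.59 and -0.76) and the ligand SEMA3A (-1.53 and -1.30), while NRP2, a co-receptor for semaphorins, rose by 1.00 and 0.80 and the ligand SEMA3C by 0.83 and 0.52. PLXNA4 was also lower in PK25 than in V22, whose mean was 8.61 ± 0.15 (SD, n = 3 arrays, limma adjusted p = 0.0013), so that PK25 lay between V22 and the pair. The Notch ligand JAG1 differed by -1.08 and -1.22 and the transcription factors PRRX1 by -0.75 and -0.99 and ZEB1 by -0.92 and -0.73.

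The calls were spread unevenly over the chromosomes. Chromosome 6 held 150 of the 449 lower genes, which is 15.4% of its 976 measured genes against 2.44% of all genes. It also held 13 of the 39 genes at least 2-fold lower (0.212% of all genes were so), among them DUSP22, EXOC2, MDGA1, FLOT1, DDAH2, GMNN and JARID2. EXOC2, an exocyst subunit gene, was at 8.79, 8.54 and 8.80 in PK7, 8.62, 8.56 and 8.73 in PK19 and 10.24, 10.39 and 10.15 in PK25, with V22 at 10.25. Runs of 50 neighbouring genes with a mean log2 value above 7 were read along each chromosome, and the run with the largest shared median is given. That choice used these same contrasts, so it favours large medians and calls in a single direction. On chromosome 6, from KIFC1 to MEA1, the median difference was -0.60 in PK7 and -0.80 in PK19. In that run 38 of the 50 were called lower and 0 higher, and PK25 differed from V22 by a median of 0.01. On chromosome 19, 71 genes were lower (5.44%), and the 50 genes from PINLYP to NAPA had medians of -0.45 and -0.32. Chromosome 16 showed the opposite, with 68 genes higher (8.96% of 759, against 2.94% of all genes). The 50 genes from UBE2MP1 to KIFC3 had medians of 0.53 and 0.40, and there PK25 was below V22 by a median of -0.34. MMP2 and RBL2 lie on chromosome 16. Most measured genes of these 3 chromosomes were not called. Elsewhere on them single genes were called the other way, such as ACAT2 and SOD2 on chromosome 6 and HSD17B2 on chromosome 16. The 3 runs of 50 genes, picked for their shared medians, held 0 calls the other way, so SOD2 lies outside the run from KIFC1 to MEA1. The chromosome arm of each gene was not analysed here. Of the 3 lower genes of DNA replication (36 measured), GMNN and MCM3 lie on chromosome 6 and POLD1 on chromosome 19, and the 1 higher one, ORC6, lies on chromosome 16. The histone genes H2AC6 and H2BC6, the 2 lower of 43, and SRF also lie on chromosome 6. The histone count was 1 without PK7 set 1 or PK7 set 3 and 0 without PK19 set 1, PK19 set 2 or PK25 set 1, where the adjusted p by limma was 0.081 to 0.095 for H2AC6 and 0.06 to 0.063 for H2BC6. No copy number was measured here.

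**Figure D3:**
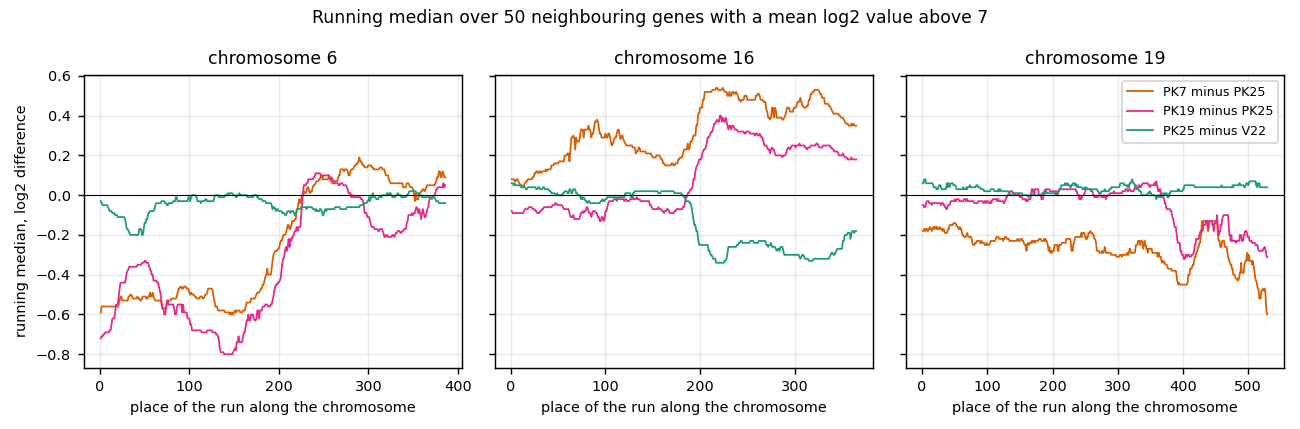
Running median of the log2 difference over 50 neighbouring genes (vertical axis) by place along chromosomes 6, 16 and 19, for PK7 minus PK25, PK19 minus PK25 and PK25 minus V22. On chromosome 6 the first lines reach -0.60 and -0.80 while PK25 minus V22 stays near 0, and on chromosome 16 PK25 minus V22 reaches -0.34.

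The same genes were then read in the vector clones, which carry no introduced parkin. Their 9 arrays of the first series did not enter the fit, but they did enter the choice of each gene's brightest probe set. This comparison was added after the data were seen. In limma on those 9 arrays 0 of 26947 probe sets were called between V17 and V22, with 850 (3.15%) at an unadjusted p under 0.05, and V8 was set against both. V8 was called higher than both in 604 genes (3.29%) and lower than both in 672 (3.66%). Of the 116 genes at least 2-fold higher in PK7 and PK19, V8 was higher in 51 (44%) and lower in 6. Of the 39 genes at least 2-fold lower, V8 was lower in 20 (51.3%) and higher in 5. The median of V8 minus the mean of V17 and V22 was 0.51 over the 116 genes and -0.63 over the 39, against -0.01 over all genes. Leaving out any 1 of the 9 arrays gave 36 to 48 and 15 to 21 genes in place of 51 and 20. Over all genes the calls moved most without V17 set 1 (341 higher and 441 lower) and V22 set 1 (376 and 387), and the lower ones also without V17 set 3 (427) and V22 set 3 (409).

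**Figure D4:**
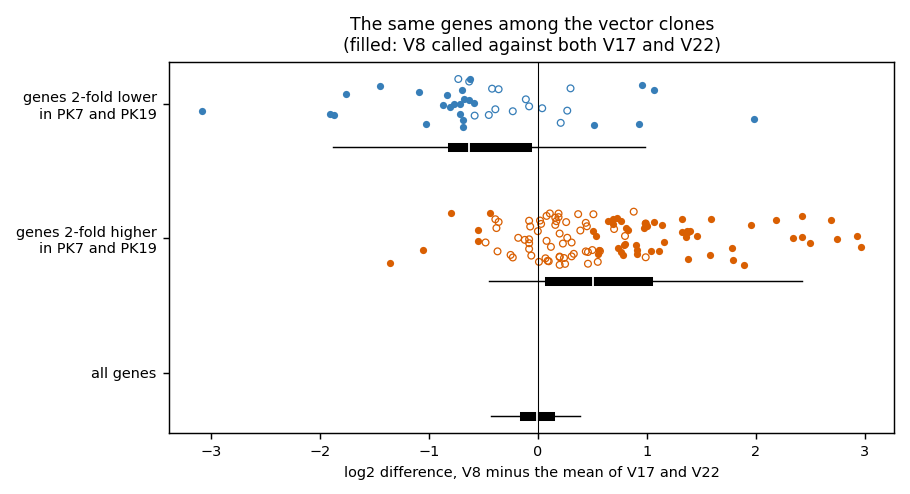
Log2 difference of vector clone V8 from the mean of V17 and V22 (horizontal axis) for all genes and for the genes at least 2-fold higher (116) or lower (39) in PK7 and PK19, each point 1 gene and filled where V8 was called against both. Under the points the thin line spans the 5th to 95th percentile, the thick line the 25th to 75th, and the white tick is the median, at 0.51 for the higher and -0.63 for the lower genes.

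C1S in V8 was at 7.55, 7.56 and 7.70, which is 2.93 (SE 0.16) above V17 and V22 (larger limma adjusted p = 2.0e-05). C3 was at 7.58, 9.12 and 7.42 and exceeded them by 2.97 (SE 0.32), C1R by 1.14 (SE 0.09), CXCL8 by 2.75 (SE 0.52) and TGFBI by 1.07 (SE 0.23). ACAT2 stood 2.34 above, ELOVL7 1.38, LOX 1.58, HSPB8 2.19, SOD2 1.00 and PCDHB13 0.83. Several of the largest lower genes were lower in V8 too, with GABRA3 at -3.08 (SE 0.15), HSD17B2 at -1.91 (SE 0.12), PLXNA4 at -1.87, LRRTM4 at -1.76, DUSP22 at -1.45 and EXOC2 at -1.09. V8 did not follow PK7 and PK19 everywhere. It was called neither way in several of the largest rises, NAP1L3 (0.20), ALDH2 (0.51), ZNF717 (0.07), TLE4 (0.12), MGARP (0.20) and PCDHB2 (0.03). The same held for CDKL2 (0.04), SEMA6D (-0.73) and SLC37A2 (-0.45) among the lower genes. MMP1 was 1.98 above V17 and V22 in V8 and TMEM156 0.96 above, as in PK25 and not as in PK7 and PK19, and MCAM (-1.05) and EFEMP1 (-0.80) were lower in V8. The list of HIF targets had a median of 0.04 in V8 with 3 of 43 called higher and 0 lower. Of 27 NF-kB targets 8 were called higher there and 1 lower, and of 14 complement genes 4 and 0. Of all genes, 3.29% were called higher in V8 and 3.66% lower. Over the chromosome 6 genes from KIFC1 to MEA1, V8 had a median of -0.51 and 31 of 50 were called lower, and over the run on chromosome 19 the median was -0.29. On chromosome 16 the run had a median of 0.06 in V8, where V17 and V22 differed by 0.02. Without chromosome 6, 26 genes at least 2-fold lower in PK7 and PK19 remained. V8 was lower in 10 of them (38.5%) and higher in 4 (15.4%), against 3.66% and 3.29% of all genes, with a median of -0.43.

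Among the other lists the shared calls were few. Lysosome and autophagy genes held 6 higher calls and 1 lower of 31 (2.94% and 2.44% of all genes), with medians of 0.29 and 0.20. The lysosomal membrane protein LAMP1 rose by 0.64 and 0.47, the autophagy receptor SQSTM1 by 0.55 and 0.38, GABARAPL1 by 0.78 and 0.75, WIPI1 by 0.49 and 0.88, the transcription factor MITF by 1.19 and 1.14 and the proton pump subunit ATP6V0D2 by 1.27 and 1.30, while the sialidase NEU1 on chromosome 6 differed by -0.53 and -0.46. WIPI1 lost its call without PK7 set 2, PK25 set 1 or PK25 set 3 (limma adjusted p = 0.071 to 0.093) and ATP6V0D2 without PK7 set 1, PK7 set 3 or PK25 set 3 (0.052 to 0.058). The 21 genes of mitophagy and mitochondrial dynamics, the process parkin is known for, held 1 call, BNIP3L (0.79 and 0.87), which is also in the HIF list. Oxidative phosphorylation held 1 of 39, COX4I1 on chromosome 16 (0.55 and 0.45). No ribosomal protein (34 measured), proteasome subunit (28), HOX gene (23), cadherin (15), cancer-testis gene (15) or insulin-like growth factor gene (13) was called in the same direction in both by limma. Of these, HOXD10 (0.90 in PK7 and -0.83 in PK19), HOXD11 (0.49 and -0.79) and the proteasome gene PSMC4 (-0.51 and 0.41) passed in both contrasts with opposite signs. At an unadjusted p under 0.05 in both contrasts with the same sign the insulin-like growth factor list held 2 higher genes, the proteasome 1 higher, HOX genes 2 lower, ribosomal proteins and cadherins 1 lower each and the cancer-testis list 0.

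Stress and cell cycle lists gave small counts. Targets of p53 held 4 higher calls of 22 (2.94% of all genes were called higher and 2.44% lower), the death receptor TNFRSF10B (0.66 and 0.62), RRM2B (1.06 and 0.36), SESN1 (0.82 and 0.47) and ZMAT3 (0.47 and 0.36), and 1 lower, TP53I3 (-0.69 and -0.91). That count of 4 was 1 without PK19 set 1 or PK19 set 3 and 2 without PK25 set 1 or PK25 set 3. SESN1 was at an adjusted p of 0.05 by limma as reported, just inside the threshold, and lost its call without any 1 of PK7 set 3, the PK19 arrays, the PK25 arrays or the V22 arrays (0.055 to 0.14), and ZMAT3 without PK19 set 1 or PK19 set 3 (0.066 and 0.062). The unfolded protein and ATF4 list held 4 of 25, the chaperone DNAJC3 (0.83 and 1.10), the serine synthesis enzymes PSAT1 (0.95 and 2.20) and PHGDH (0.77 and 0.54) and the transcription factor XBP1 (0.46 and 1.08), with 2 called without PK19 set 1, PK25 set 1 or PK25 set 3. There XBP1 lost its call without PK7 set 1, PK7 set 2, PK19 set 1, PK19 set 3, PK25 set 1, PK25 set 3, V22 set 4 or V22 set 6 (limma adjusted p = 0.052 to 0.16) and PHGDH without PK19 set 1, PK19 set 2, PK25 set 1 or PK25 set 3 (0.056 to 0.086). Cyclin D1 (CCND1) differed by -0.54 and -0.36, its kinase CDK6 by 0.96 and 1.01 and the pocket protein RBL2 by 1.18 and 0.62. The CCND1 call was lost without any 1 of the PK19 arrays, PK25 set 1 or PK25 set 2 (limma adjusted p = 0.051 to 0.096). Of 30 interferon response genes 2 rose, B2M (0.80 and 0.66) and IFI6 (1.06 and 0.36), and 1, the RNA sensor RIGI, was lower, at -0.88 and -1.58. IFI6 lost its call without PK7 set 1, any 1 of the PK19 arrays, PK25 set 1, PK25 set 3 or any 1 of the V22 arrays (limma adjusted p = 0.053 to 0.13), and B2M without PK19 set 1 or PK19 set 3 (0.05 and 0.052). Glutathione synthesis gene GCLM rose by 0.63 and 0.87 and the efflux pump ABCC3 by 0.86 and 0.87, while the pump ABCG2 differed by -0.74 and -2.28 and lost its call without any 1 of the PK7 arrays, PK25 set 1, PK25 set 2, V22 set 4 or V22 set 6 (limma adjusted p = 0.051 to 0.14).

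**Figure D5:**
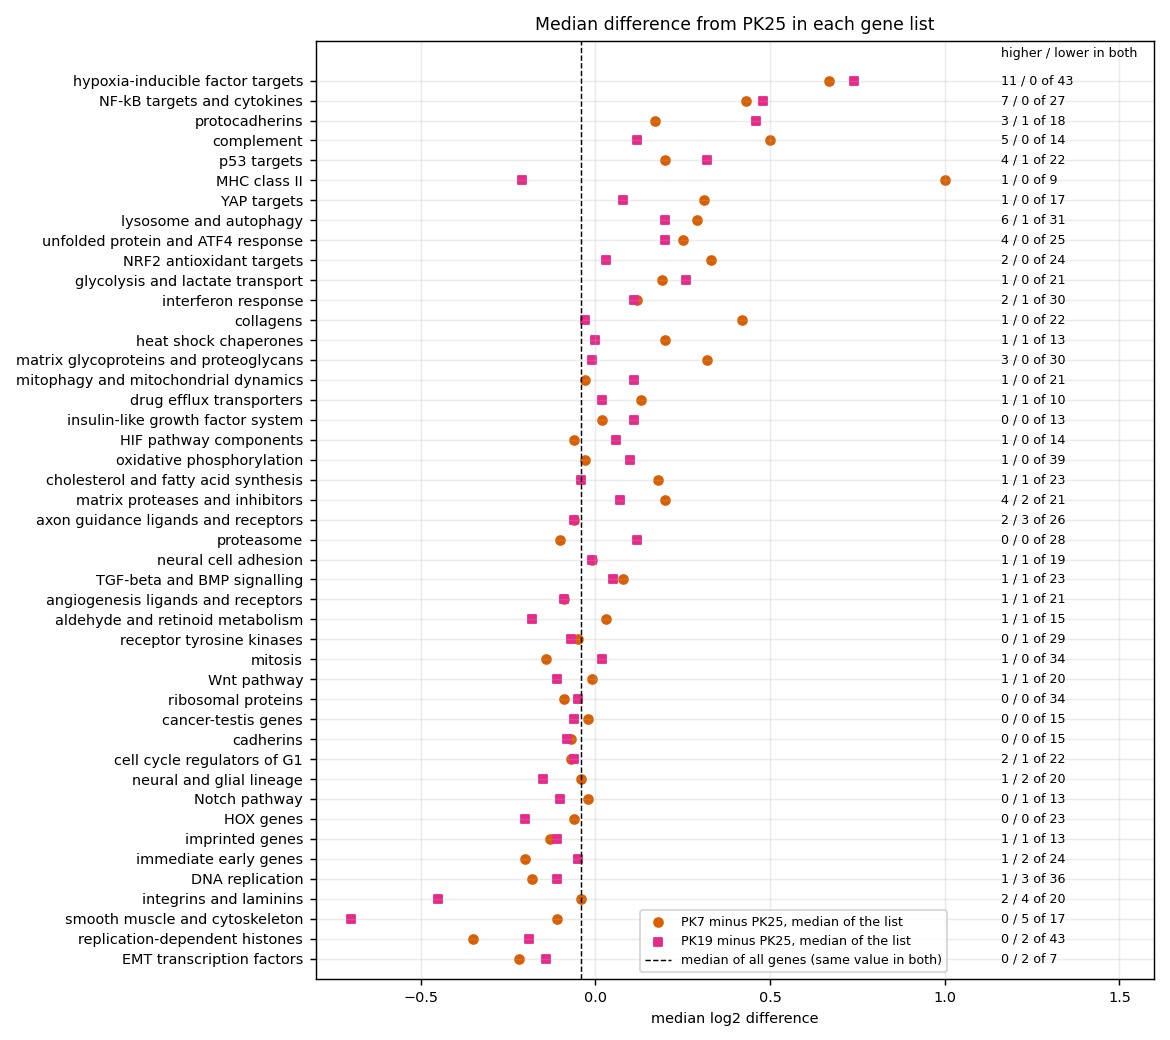
Median log2 difference from PK25 (horizontal axis) over the measured genes of each list, for PK7 (circles) and PK19 (squares), with the count of genes called higher and lower in both. The dashed line is the median of all genes, -0.04. The HIF target list lies farthest to the right in PK19, at 0.74 (0.67 in PK7), and the MHC class II list in PK7, at 1.00 (-0.21 in PK19).

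PK7 and PK19 share their direction by the rule but not always the size. Of the 541 higher genes 123 (22.7%) and of the 449 lower genes 99 (22%) also differed between PK7 and PK19, against 17.2% of all genes. In the genes at least 2-fold higher, the median difference was 1.49 in PK7 and 1.45 in PK19, and PK7 had the larger one in 59 of 116. In those at least 2-fold lower, PK19 had the larger one in 29 of 39, with median sizes of 1.28 and 1.62. Few genes rested on several probe sets. FLOT1, DDAH2 and LSM2 on chromosome 6 each have near-identical further probe sets that gave the same direction. The second probe set of NRG1 was called as well (0.96 and 1.56). That of CACNA1C was not (0.50 and 0.63, larger limma adjusted p = 0.0882), nor was that of ITFG1 (0.53 and 0.08, larger limma adjusted p = 0.782), which was dim at 3.98 in PK25. Among the 7642 probe sets without exactly 1 symbol, 95 were called higher and 91 lower.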

How the data were processed

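RNA of the clones was measured on 21 whole-transcript gene arrays. The authors deposited a table of linear intensity values, made with RMA per the submitters' processing notes, and the RMA version, and if the 21 arrays were normalized jointly, are not given in the sources used here. Intensities were turned to log2 here, with no further scaling. Of 26947 probe sets, 19305 had 1 gene symbol (18374 genes), 1750 had several and 5892 were not listed, and the latter kinds are unnamed here. A gene is read from its brightest probe set. The 12 arrays of the second file prefix were fitted in limma (3.58.1, R 4.3.3) with a mean per clone, p-values were adjusted by Benjamini-Hochberg over all probe sets, and a gene was called where both contrasts had an adjusted p under 0.05 and the same sign. The number of arrays limits the precision. Named are the 15 genes each way with the largest value of the smaller of both differences (at least 2-fold, arrays apart, brighter side above the median probe set) and up to 4 called members per list, or the 2 with the smallest p where none was called. Other genes in the text were chosen after their values were seen. The members and lists were chosen with earlier results of these data known. Alternatives covered scaling, filtering, array weights, a replicate block, clone means and each array left out. The comparison with V8 was added after the data were seen.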

Additional observations from a re-analysis of the deposited data

Results flagged for a closer look

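In the genes below PK7 and PK19 differed from each other by limma (adjusted p under 0.05) although both were called the same way against PK25. The values are log2 differences of PK7 minus PK19, and no explanation is weighed. Among genes higher than in PK25, PK7 was the higher clone in C3 (1.29), IFI6 (0.70), SOD2 (0.69), CLU (0.68), ITGAV (0.63) and RBL2 (0.57). PK19 was the higher clone in EFEMP1 (-1.74), IL6 (-1.71), PSAT1 (-1.25), PCDHB2 (-0.89), ITGB5 (-0.73), XBP1 (-0.61), TCF7L2 (-0.48) and CD44 (-0.42). Among genes lower than in PK25, PK19 was the lower clone in ABCG2 (1.53), LOC151760 (1.21), EPHA2 (0.86), CRABP2 (0.73), RIGI (0.70), PDE3A (0.54), MDGA1 (0.53), VEGFC (0.43) and CNN2 (0.28). PK7 was the lower clone in MMP1 (-0.98), SPRY4 (-0.89), PLXNA2 (-0.83), PCDH10 (-0.72) and POLD1 (-0.39).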

How the results depend on the processing

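With array weights limma called 1180 genes higher and 1110 lower. With clone means, 2 against 1, it called 0 and 0, and 0 and 0 at 2-fold, where the fit has 2 clones on one side and 1 on the other. At least 1.5-fold differences numbered 301 and 208 and at least 4-fold ones 12 and 4. With the running median of 50 neighbours subtracted, 653 genes were called higher and 370 lower, and 610 of the 990 stayed called. Higher and lower calls were then 122 and 29 on chromosome 6 (16 and 150 without). They were 19 and 44 on chromosome 16 (68 and 6) and 43 and 16 on chromosome 19 (11 and 71). The histone medians were 0.12 in PK7 and 0.18 in PK19 (-0.35 and -0.19), and the complement median was 0.54 (0.30). Leaving out each array gave 364 to 590 genes higher, 306 to 434 lower, 97 to 135 at least 2-fold higher and 26 to 47 lower, with medians of 0.55 to 0.82 for HIF targets, 0.45 to 0.52 for NF-kB targets and 0.25 to 0.44 for complement. For V8 it gave 341 to 574 genes higher and 387 to 668 lower.

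Same-set correlations of deviations were 0.151, 0.323 and 0.218 between PK7 and PK19 (sets 1, 2 and 3), but 0.19, 0.145 and -0.092 between PK7 and PK25 and -0.023, 0.381 and -0.002 between PK19 and PK25, and PK7 set 1 correlated better with PK19 set 3 (0.204). The sets were therefore not taken as pairs. Sets entered as a replicate block were fitted on the 9 parkin arrays, without V22. That fit called 480 genes higher and 351 lower, against 405 and 351 on the same 9 arrays without the block. Of the 831 genes called with the block, 750 were shared with the 990. At 2-fold the block gave 119 and 40 (111 and 38 without it). The block gave 18 higher HIF targets, against 5 on the same 9 arrays without it. Other counts, with those without the block in brackets, were 4 higher glycolysis genes (0), 3 lower proteases (2) and 3 higher axon guidance genes (1). There were also 2 higher p53 targets (2), 4 higher genes of the unfolded protein list (2) and 3 higher protocadherins (2). Lower calls were 4 in smooth muscle (5), 1 matrix glycoprotein (0) and 0 histones (1).

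Of 115 named called genes, 0 lost the call with array weights or without the dimmest probe sets, 12 with the block, 17 with the 9 parkin arrays alone, 19 with neighbours subtracted, up to 23 without 1 array (PK25 set 1) and 115 with clone means. The sign of the mean difference turned in 6 genes, of which H2AC6 alone was called as reported. CDH18 was 0.13 with array weights, 0.26 without the set 2 arrays and -0.11 to 0.07 without 1 array. RPS27 was 0.06, 0.03 and -0.04 to 0.03 in the same settings. RPL3 was -0.02 after quantile normalization and -0.04 to 0.05 without 1 array, HOXD10 -0.23 to 0.32 without 1 array, and with neighbours subtracted H2AC6 was 0.06 and PSMC4 0.04. The cause was not tested.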
